A study of Homo sapiens with 9 samples.

Results

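The SLC25 genes encode the mitochondrial carrier family, and their transcripts were followed in WM3248 cells exposed to ARN22089. Members were all protein-coding genes whose symbol begins with SLC25A and that were assembled in at least 1 of 9 libraries. Of 48 such genes in RefSeq, 42 were assembled, among 14618 genes named in all, and 40 of the 42 reached the mean of 1 FPKM needed for testing. SLC25A2, SLC25A31, SLC25A41, SLC25A47, SLC25A48 and SLC25A52 were not assembled, and SLC25A18 and SLC25A34 stayed under the limit. WM3248 is a human melanoma cell line, and every library came from that line in culture. The compound, an inhibitor of the interaction between GTPases of the CDC42 family and their effectors, was given at 0 (DMSO, the solvent), 4 or 6 µM, and the cells were collected after 24 h. There were 3 libraries per dose, of RNA enriched for poly-A tails. FPKM, the unit used throughout, is the number of fragments per kilobase of transcript relative to all mapped fragments, so levels can be compared between genes.

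Carriers of this family sit in the inner mitochondrial membrane, with a few in other membranes, and are built from repeats of a pair of membrane-spanning helices. Each exchanges or moves small solutes between the cytosol and the matrix: nucleotides, phosphate, di- and tricarboxylates, amino acids, cofactors and metal ions. They connect oxidative phosphorylation with the ATP-consuming reactions of the cytosol, and they carry the reducing equivalents, citrate and one-carbon units that growing tumour cells use.

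Each library was assembled on its own, into between 26506 and 30798 transcripts, and between 11994 and 12628 genes were named in a library. Depth in reads is unknown, and relative depth ran from 0.802 to 1.342 of the median library. Across genes, Pearson correlations were 0.886 to 0.921 between libraries of a dose and 0.857 to 0.919 between doses. Libraries with the same replicate number carry a shared mark in the descriptions, but its meaning is not stated. Whether the replicates of a dose were separate cultures is therefore unknown. The spread that p-values measure is that of these libraries and may be technical. Unless stated, the fits leave the shared replicate number out. All 7 melanocyte lineage markers were assembled, and their summed level was 178 to 309 FPKM at 0 µM, 449 to 476 at 4 µM and 439 to 576 at 6 µM. The change in this sum was led by DCT, with means of 91.2, 261 and 291 FPKM. The other markers also had higher means at both treated doses, but MITF only moved from 13.5 to 15.4 and 16.3 FPKM. Of the markers of other cell types, KRT5, KRT1, PECAM1, CDH5, VWF, PTPRC and CD3E were at 0 in all 9 libraries and KRT14 never exceeded 2.27 FPKM. CD68 appeared in a single library at 4 µM, at 142 FPKM. The 4 fibroblast markers summed to between 16.0 and 59.8 FPKM at 0 µM, 29.9 and 52.0 at 4 µM, then 29.3 and 54.9 at 6 µM, led by COL1A2 and LUM. The part of these shifts in the results below was not tested. In bulk RNA, fewer cells of a kind and less RNA per cell cannot be told apart.

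A few carriers made up most of the family's RNA. The summed level of all members was 1722 ± 144 FPKM at 0 µM (SD, n = 3), 1863 ± 66.4 at 4 µM and 1819 ± 46.2 at 6 µM. At 0 µM, SLC25A5, SLC25A3, SLC25A6 and SLC25A4, which carry the adenine nucleotides and phosphate used by ATP synthase, held 65.9% of that sum. Over all libraries 4 members averaged at least 100 FPKM, 18 lay between 10 and 100, 18 between 1 and 10 and 2 below 1. SLC25A5, SLC25A3 and SLC25A6 were the 3 highest carriers in every library, as the plot of levels by library shows. Of the 42, 35 were above 0 in every library and 7 were listed at 0 in at least 1.

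**Figure D1:**
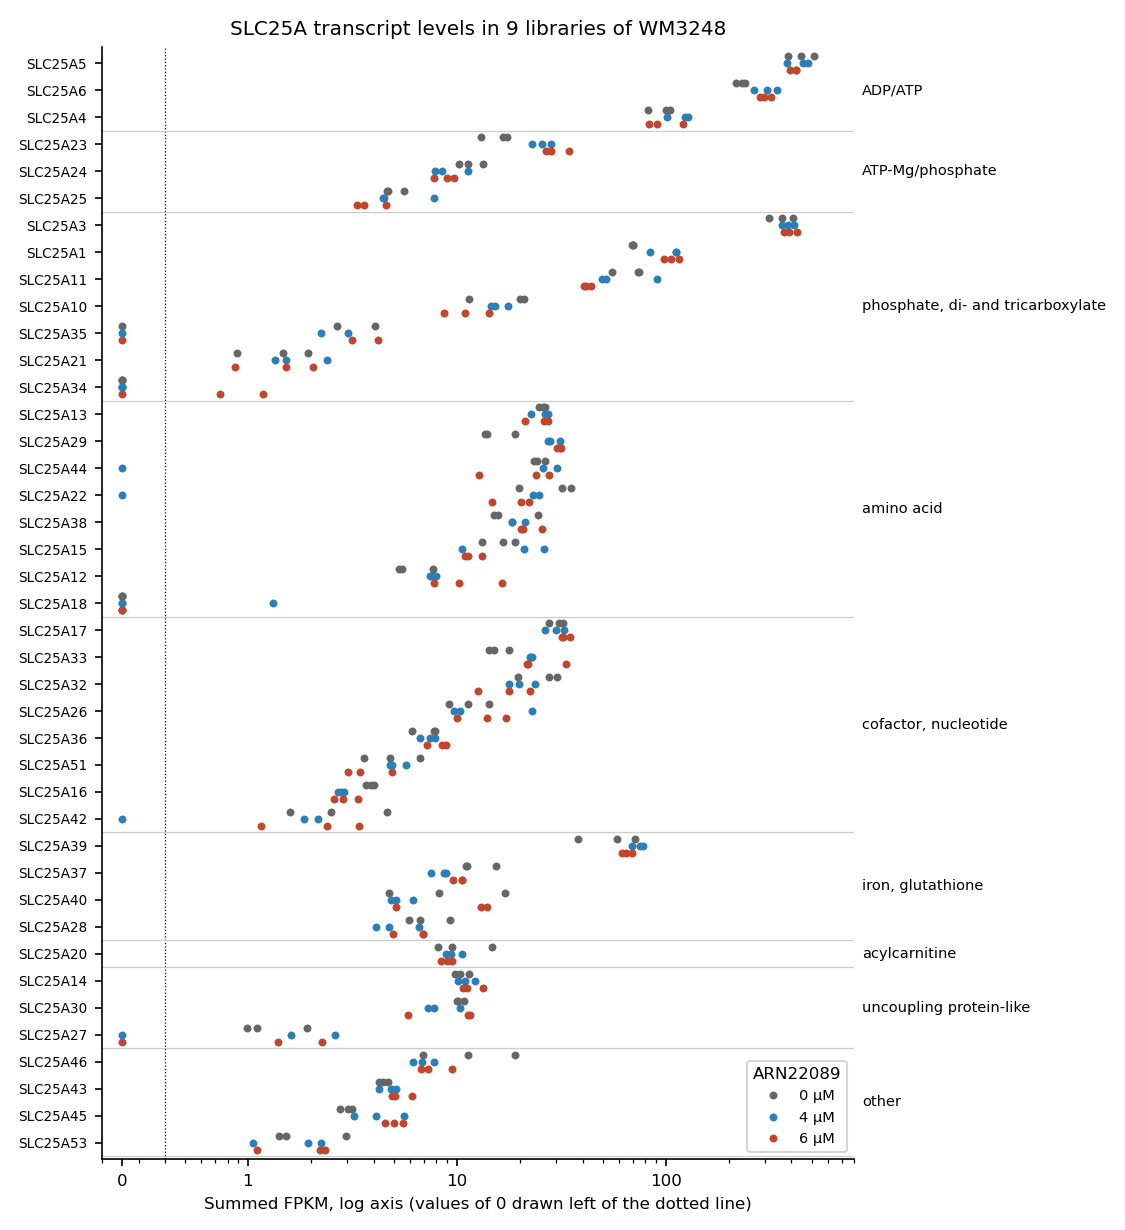
Summed FPKM of 41 of the assembled SLC25A genes (log axis), grouped by what they carry, with 1 point per library coloured by dose. SLC25A5, SLC25A3 and SLC25A6 lie at 218 FPKM or more in all 9 libraries, and points left of the dotted line are values of 0.

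The question for each dose was whether any carrier differed from the cells that received DMSO. With limma over all 12234 genes tested, 10 genes passed an adjusted p of 0.05 at 4 µM (0.0817% of those tested, 9 of them higher than at 0 µM), 38 at 6 µM (0.311%, 22 higher) and 3 between 6 and 4 µM (0.0245%, 2 higher). With the shared replicate number as a block these counts were 2, 4 and 1. Without replicate 1, 2 or 3 at 0 µM the count at 4 µM was 26, 23 or 22, and without replicate 2 at 6 µM it was 6. The count at 6 µM was 76 without replicate 1 at 0 µM, and 16 to 19 without replicate 1 or 2 of either treated dose. Of the 40 carriers, 0 passed in any of the 3 comparisons, with or without the block. At an unadjusted p under 0.05 on summed FPKM, 5 carriers (12.5%) were higher at 4 µM, where 6.2% of all genes were, and 1 (2.5%) was lower, where 4.63% were. At 6 µM it was 7 carriers (17.5%) against 8.08% of all genes for higher values, and 1 carrier (2.5%) against 9.75% for lower values. Between 6 and 4 µM no carrier had such a p, in either direction, where 1.69% of all genes were higher and 2.96% lower.

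Against 0 µM, the family as a whole had a median difference close to that of all genes. Differences here are log2 differences of FPKM + 1, which understate changes of low genes. The median over the 40 carriers was -0.027 at 4 µM, beside -0.0023 over all genes, and -0.043 at 6 µM, beside -0.034. Between 6 and 4 µM it was 0.071 beside -0.030. In each dose comparison with 0 µM, 19 of 40 differences were above 0 (47.5%), where 49.5% of all genes were above 0 at 4 µM and 46.3% at 6 µM. Between 6 and 4 µM 25 of 40 were above 0 (62.5%), beside 44.3% of all genes. Higher and lower carriers were therefore mixed at both doses, as the plot of differences by carrier group shows. Both comparisons use the same 3 libraries at 0 µM, so a carrier that is high or low there moves both.

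**Figure D2:**
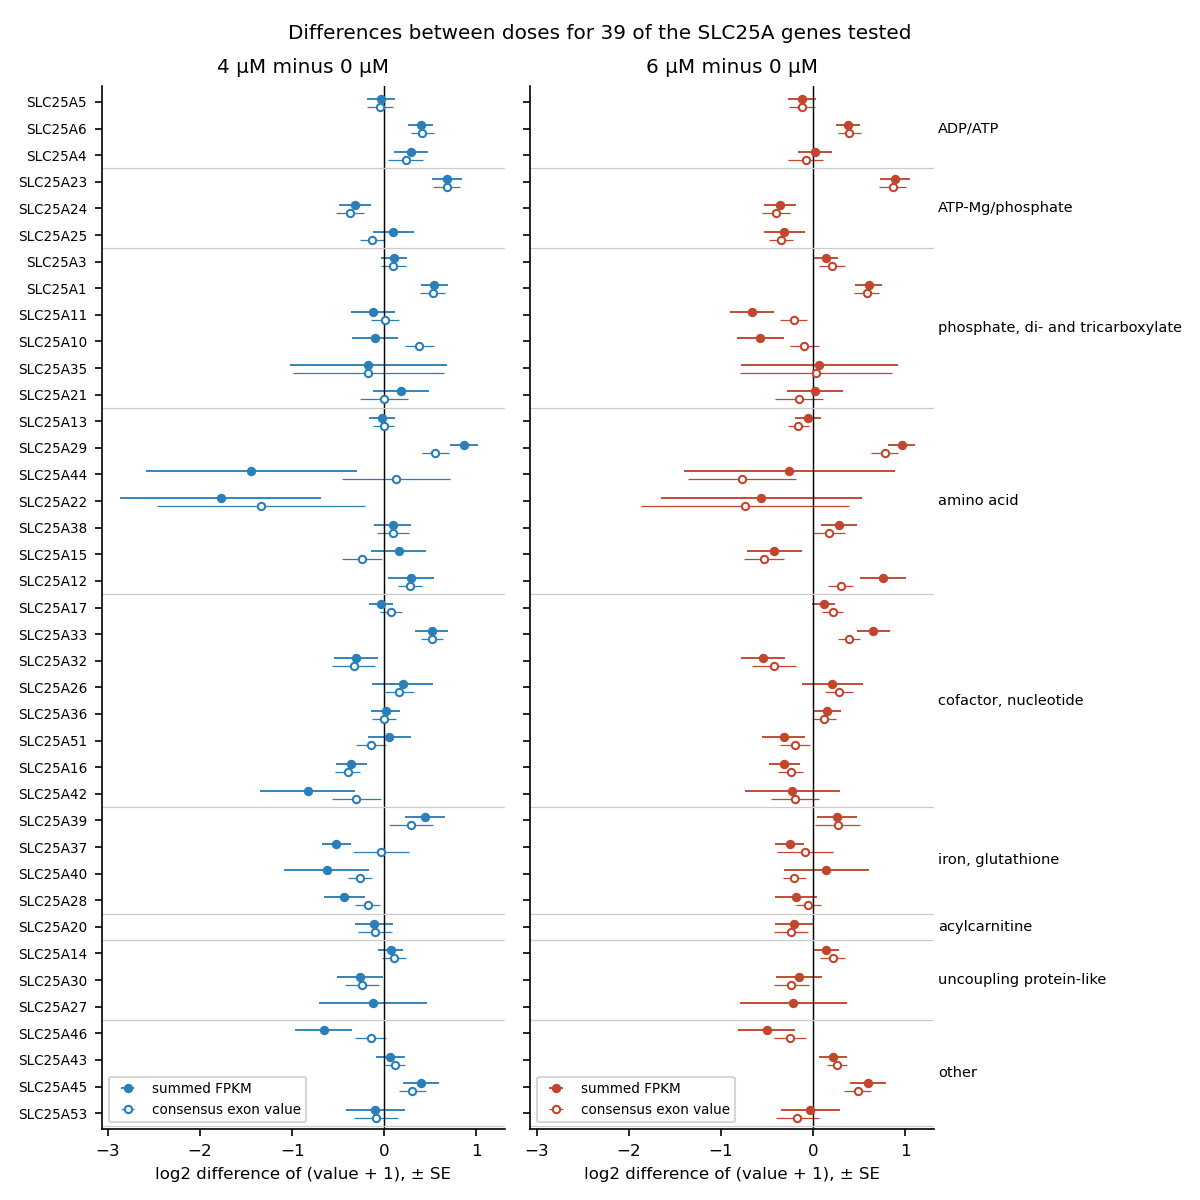
Log2 difference of (value + 1) from 0 µM, with its SE from the limma fit, for 39 of the tested SLC25A genes at 4 µM (left) and 6 µM (right); filled points are summed FPKM and open points the consensus exon value. SLC25A23, SLC25A29, SLC25A1, SLC25A33 and SLC25A6 lie to the right of 0 in both panels. Among the filled points, the wide bars of SLC25A22 and SLC25A44 go with a library listed at 0, and those of SLC25A35 with 3. No consensus exon value of SLC25A44 was 0, and its lowest was 3.67 FPKM, in replicate 1 at 6 µM.

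Because assemblies of a gene can be split or doubled, a further value was computed for each gene, the consensus exon value. For it, FPKM was averaged base by base along the exons, using bases present in 50% or more of the libraries in which the gene was assembled. Every transcript across those bases counts, also one named after a neighbour. With this value 11 of 12133 genes passed at 4 µM (0.0907%), 557 at 6 µM (4.59%) and 6 between the doses (0.0495%). The count at 6 µM depended on single libraries, since it was 16 without replicate 1 at 6 µM and 66 without replicate 2 at 4 µM. Of 39 carriers tested, SLC25A23 and SLC25A29 passed at 6 µM (5.13%, near the share of all genes) and 0 passed in the other comparisons. The median difference of the carriers was then -0.0021 at 4 µM, beside -0.0146 over all genes, and -0.096 at 6 µM, beside -0.0538. Between the doses it was -0.020 beside -0.0438, and 19 of 39 carriers (48.7%) were above 0. The share of all genes above 0 is not given for this value. At an unadjusted p under 0.05, 6 of 39 (15.4%, beside 7.48% of all genes) were higher at 4 µM and 7 (17.9%, beside 9.63%) at 6 µM. Lower were 2 (5.13%, beside 7.34%) at 4 µM, SLC25A16 and SLC25A24, and 3 (7.69%, beside 15.5%) at 6 µM, SLC25A15, SLC25A24 and SLC25A25. Between 6 and 4 µM 0 were higher (beside 1.33%) and SLC25A10 was lower (2.56%, beside 3.34%).

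Among the ADP/ATP carriers, which exchange matrix ATP for cytosolic ADP, 3 of 4 genes were assembled and 0 of 3 passed the adjusted threshold. SLC25A6, the ubiquitous isoform on chromosome X (chrX:1386152-1392113, GRCh38), read 240, 218 and 232 FPKM at 0 µM. It read 340, 306 and 265 at 4 µM, then 318, 296 and 283 at 6 µM. Every treated library was above every library at 0 µM. On the log2 scale it differed by 0.39 ± 0.13 (SE) at 4 µM (adjusted p = 0.384) and 0.38 ± 0.13 at 6 µM (adjusted p = 0.199), so neither passed. SLC25A5, the isoform of proliferating cells, was the most abundant carrier at 448 ± 65.9, 438 ± 51.6 and 411 ± 14.02 FPKM at 0, 4 and 6 µM. SLC25A4, the isoform of heart and muscle, was at 96.2 ± 12.0, 118 ± 14.6 and 98.4 ± 20.3 FPKM. As a share of the FPKM of the 3 isoforms, SLC25A6 held 27.9% to 31.9% at 0 µM, 31.3% to 37.8% at 4 µM and 35.4% to 38.8% at 6 µM. The shares at 0 and 4 µM overlapped, and those at 0 and 6 µM did not. The coding sequences of SLC25A5 and SLC25A6 are 78.7% identical, those of SLC25A4 and SLC25A5 77.2% and those of SLC25A4 and SLC25A6 77.9%, and the sources used here do not say how reads that fit several of them were divided. Over 43 annotated pseudogenes of the family, 0 held an assembled single-exon transcript.

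The ATP-Mg/phosphate carriers adjust the matrix pool of adenine nucleotides and bind calcium through an N-terminal domain. SLC25A23 (chr19:6436081-6459792) read 13.0, 17.3 and 16.7 FPKM at 0 µM, 28.3, 25.7 and 22.9 at 4 µM, then 34.4, 28.4 and 26.7 at 6 µM. All treated libraries were above all libraries at 0 µM, and those at 4 and 6 µM overlapped. Its log2 difference was 0.68 ± 0.16 at 4 µM (adjusted p = 0.274) and 0.89 ± 0.16 at 6 µM (adjusted p = 0.0625). With the consensus exon value it was 0.68 ± 0.15 (adjusted p = 0.162) and 0.86 ± 0.15 (adjusted p = 0.0287), the latter past the threshold, also with the replicate block (adjusted p = 0.0375). With 1 library left out at a time, that adjusted p ran from 0.0318 to 0.114 and passed in 4 of 9 cases. It did not pass without replicate 2 or 3 at 0 µM, replicate 2 at 4 µM, or replicate 1 or 2 at 6 µM. Its paralog SLC25A24 was at 11.7 ± 1.57, 9.22 ± 1.84 and 8.84 ± 0.97 FPKM, with log2 differences of -0.32 (adjusted p = 0.531) and -0.36 (adjusted p = 0.319). With the consensus exon value they were -0.38 ± 0.15 at 4 µM (adjusted p = 0.310) and -0.40 ± 0.15 at 6 µM (adjusted p = 0.148). The ratio of SLC25A23 to SLC25A24, both as summed FPKM and so per length, was 0.975 to 1.63 at 0 µM, 2.02 to 3.33 at 4 µM and 2.74 to 3.83 at 6 µM. SLC25A25 was lower than both, at 4.98 ± 0.55, 5.56 ± 1.91 and 3.84 ± 0.66 FPKM, and was assembled from 2 listed starts, chr9:128068232 in 7 libraries and chr9:128098507 in 9.

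Carriers of phosphate and of di- and tricarboxylates supply the substrate of ATP synthase and connect the citric acid cycle with the cytosol. All 7 on the list were assembled, 6 were tested and 0 passed. SLC25A1, the citrate carrier (chr22:19175581-19178736), exports citrate, from which cytosolic acetyl-CoA is made. It read 69.1, 69.7 and 70.1 FPKM at 0 µM, 112, 112 and 84.4 at 4 µM, then 116, 98.5 and 106 at 6 µM. Its libraries at 0 µM were close together and all below the treated ones. Differences were 0.54 ± 0.14 at 4 µM (adjusted p = 0.300) and 0.61 ± 0.14 at 6 µM (adjusted p = 0.0908), and 0.58 ± 0.14 at 6 µM with the consensus exon value (adjusted p = 0.0504).

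All 9 libraries held SLC25A1 transcripts of 9 exons with each of a pair of 5′ ends. A shorter transcript of 5 exons, beginning further in, was held by 3, as drawn in the plot of FPKM by start. Such ends are those of assembled transcripts, which can be incomplete, and start sites were not measured. One group of 5′ ends lay at 19178753 to 19178781, within 50 bases of the listed start, and the other at 19178477 to 19178495, with a median 244 bases downstream of it. The shorter transcripts began at 19177342 to 19177399, a median of 1365 bases downstream. Transcripts at the listed start summed to 35.9, 37.2 and 29.9 FPKM at 0 µM, 75.3, 49.1 and 38.5 at 4 µM, then 45.6, 33.0 and 50.9 at 6 µM. Those of 9 exons with the other 5′ end gave 24.5, 32.6 and 40.2, then 36.3, 36.5 and 45.9, then 70.0, 65.5 and 31.5 FPKM. The transcript of 5 exons gave 8.70 FPKM in replicate 1 at 0 µM, 26.6 in replicate 2 at 4 µM and 23.8 in replicate 3 at 6 µM. The division between these 5′ ends varied from library to library within each treated dose.

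SLC25A3, the phosphate carrier, was at 361 ± 47.2, 386 ± 26.7 and 395 ± 29.1 FPKM. It was assembled as a single chain of 8 exons in all 9 libraries. Its gene has alternative forms of the third exon, of which one is used in heart and skeletal muscle and the other in most tissues. The exon of 122 bases at chr12:98595727-98595848 was present in 9 of 9 libraries, and the exon of 125 bases upstream of it, at chr12:98595433-98595557, in 0. SLC25A11, which exchanges 2-oxoglutarate for malate (chr17:4937130-4940046), read 55.1, 73.6 and 74.8 FPKM at 0 µM, 49.5, 52.0 and 90.5 at 4 µM, then 41.5, 40.8 and 44.1 at 6 µM. The libraries at 6 µM were below all others. Against 0 µM the log2 difference was -0.66 ± 0.24 at 6 µM (adjusted p = 0.207) and -0.12 ± 0.24 at 4 µM (adjusted p = 0.873). The 3 highest values came from the 3 libraries with 2 assembled transcripts, which overlap, and the consensus exon value gave -0.21 ± 0.15 at 6 µM (adjusted p = 0.410). With it the libraries at 6 µM overlapped those at 0 µM, and their highest, 43.99, lay just under the lowest at 4 µM, 44.01. SLC25A10, the dicarboxylate carrier, was at 17.6 ± 5.31, 15.8 ± 1.51 and 11.3 ± 2.78 FPKM. Its consensus exon value was 10.3 ± 0.16, 13.8 ± 1.83 and 9.75 ± 2.21, and the difference at 4 µM went from -0.10 ± 0.25 with the summed value (adjusted p = 0.908) to 0.38 ± 0.16 (adjusted p = 0.320), with all libraries at 4 µM above those at 0 µM. At 6 µM the differences were -0.57 ± 0.25 (adjusted p = 0.287) and -0.096 ± 0.16 (adjusted p = 0.741). SLC25A21 and SLC25A35 averaged 1.56 and 2.15 FPKM.

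**Figure D3:**
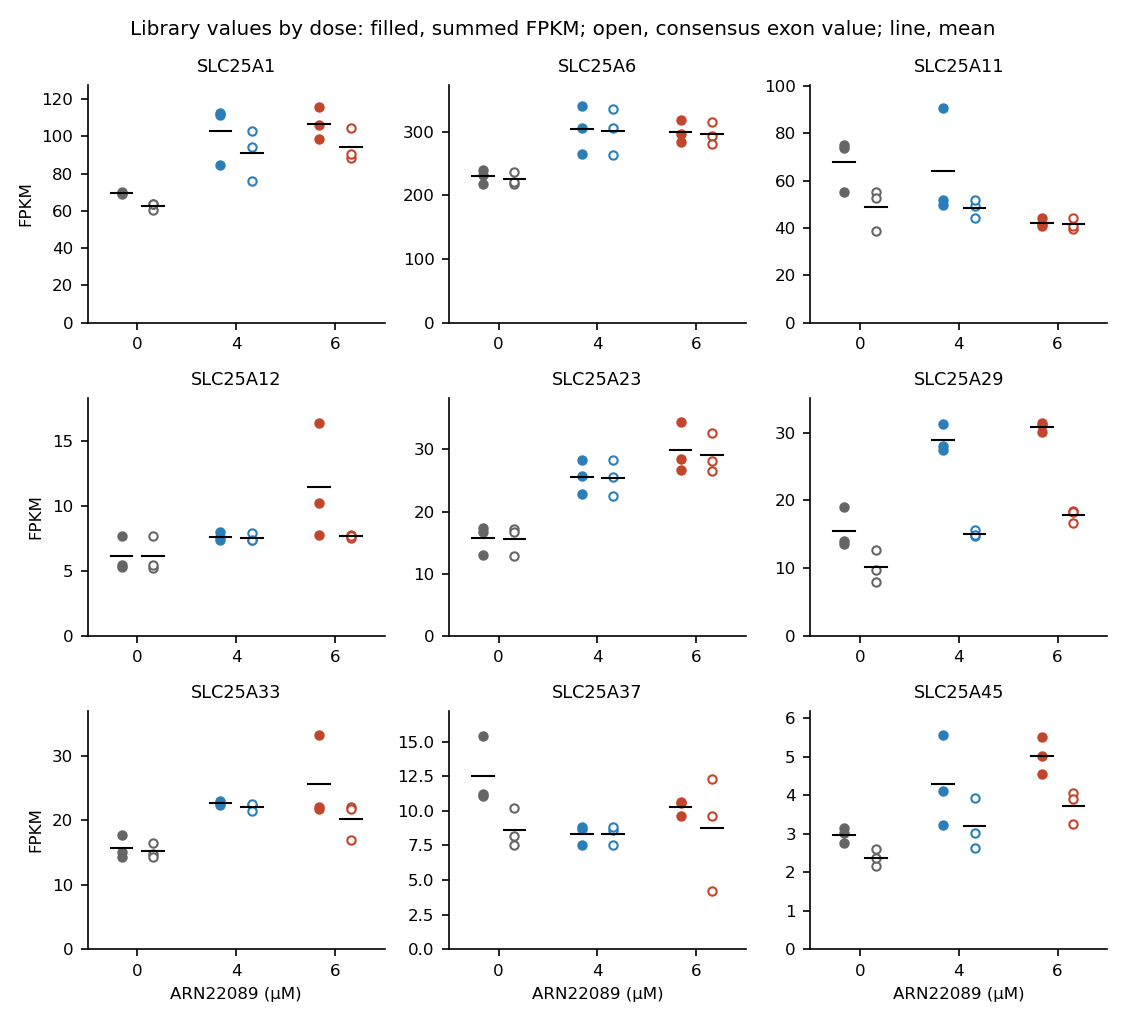
FPKM in each library at 0, 4 and 6 µM for the 9 SLC25A genes with an unadjusted p under 0.05 in at least 1 comparison of summed FPKM; filled points are summed FPKM, open points the consensus exon value and lines the mean of 3 libraries. SLC25A29 separates from 0 µM with both values, whereas for SLC25A11, SLC25A12 and SLC25A37 the open points of the treated doses overlap those at 0 µM.

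Amino acid carriers feed the malate-aspartate shuttle, the urea cycle and glutaminolysis. Of 9 on the list 8 were assembled, 7 tested and 0 called. SLC25A29 (chr14:100278567-100306444) carries basic amino acids such as arginine and lysine. It read 13.99, 19.0 and 13.6 FPKM at 0 µM, 31.3, 28.0 and 27.5 at 4 µM, then 31.1, 30.1 and 31.4 at 6 µM. All 6 treated libraries were above all 3 at 0 µM, and the treated doses overlapped. The log2 difference was 0.87 ± 0.15 at 4 µM (adjusted p = 0.242) and 0.96 ± 0.15 at 6 µM (adjusted p = 0.0508), at 6 µM just outside the threshold. These were the largest positive differences of summed FPKM among the carriers, whereas with the consensus exon value those of SLC25A23 were larger at both doses. Without replicate 2 at 0 µM, the highest there, both passed (adjusted p = 0.0447 and 0.0257). This was the only 1 of 9 fits without a library to pass at either dose, and over the 9 the adjusted p reached 0.522 at 4 µM and 0.169 at 6 µM. With the replicate block the adjusted p at 6 µM was 0.0716.

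The consensus exon value of SLC25A29 was 7.96, 12.6 and 9.78 FPKM at 0 µM, 14.7, 15.6 and 14.9 at 4 µM, then 18.4, 16.7 and 18.3 at 6 µM. Here the 3 doses did not overlap. The log2 difference was 0.55 ± 0.15 at 4 µM (adjusted p = 0.207) and 0.78 ± 0.15 at 6 µM (adjusted p = 0.0338), the latter past the threshold, also with the replicate block (adjusted p = 0.0412). With 1 library left out at a time, that adjusted p ran from 0.0330 to 0.127 and passed in 3 of 9 cases. It did not pass without replicate 3 at 0 µM, replicate 1 or 2 at 4 µM, or any of the libraries at 6 µM. Each library held 2 to 4 transcripts of the gene. Those beginning at the listed start summed to 10.9, 13.6 and 13.6 FPKM at 0 µM, 14.2, 5.66 and 5.50 at 4 µM, then 23.1, 24.8 and 12.4 at 6 µM. Those beginning elsewhere summed to 3.12, 5.47 and 0, then 17.1, 22.3 and 22.0, then 8.04, 5.32 and 18.9 FPKM. At 0 µM most of the FPKM lay at the listed start in all 3 libraries, and at 4 µM in none, whereas the libraries at 6 µM were mixed.

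**Figure D4:**
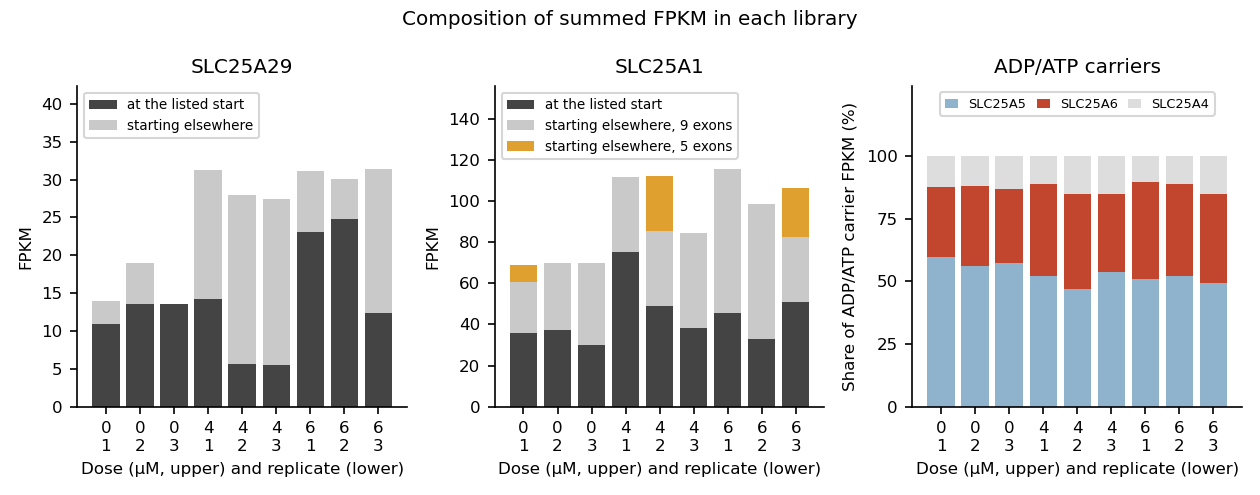
Stacked FPKM of SLC25A29 (left) and SLC25A1 (centre) in each library, divided into transcripts within 150 bases of the listed start and all others (for SLC25A1 by number of exons), and share of ADP/ATP carrier FPKM per isoform (right). The listed start holds 5.66 and 5.50 FPKM of SLC25A29 in replicates 2 and 3 at 4 µM, and SLC25A6 holds a larger share in each library at 6 µM than in any at 0 µM.

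The aspartate-glutamate carriers were represented by both genes. SLC25A13 was at 25.8 ± 0.88, 25.5 ± 2.46 and 24.9 ± 3.31 FPKM. SLC25A12 (chr2:171783405-171894244) read 7.73, 5.28 and 5.47 FPKM at 0 µM, 7.41, 7.98 and 7.59 at 4 µM, then 16.5, 7.79 and 10.2 at 6 µM, and its groups at 0 and 6 µM did not overlap. The log2 difference at 6 µM was 0.76 ± 0.25 (adjusted p = 0.182). The value of 16.5 was a sum of pieces, of which the last 4 exons alone gave 10.3 FPKM, and the consensus exon value of that library was 7.56. With it the difference at 6 µM was 0.30 ± 0.13 (adjusted p = 0.208). Of the other members, SLC25A22, a glutamate carrier, gave 35.4, 19.9 and 32.0 FPKM without the compound. Replicate 2 at 4 µM had it listed at 0. SLC25A44, which carries branched-chain amino acids, averaged 24.7 ± 1.5 FPKM without the compound, and its value in replicate 1 at 4 µM was 0. There its exons lay in a transcript of 8 exons at 27.4 FPKM (chr1:156194099-156240037) that ran on into PMF1 and took that name. SLC25A15, the ornithine carrier, averaged 15.8 FPKM and SLC25A38, the glycine carrier of haem synthesis, 20.0.

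**Figure D5:**
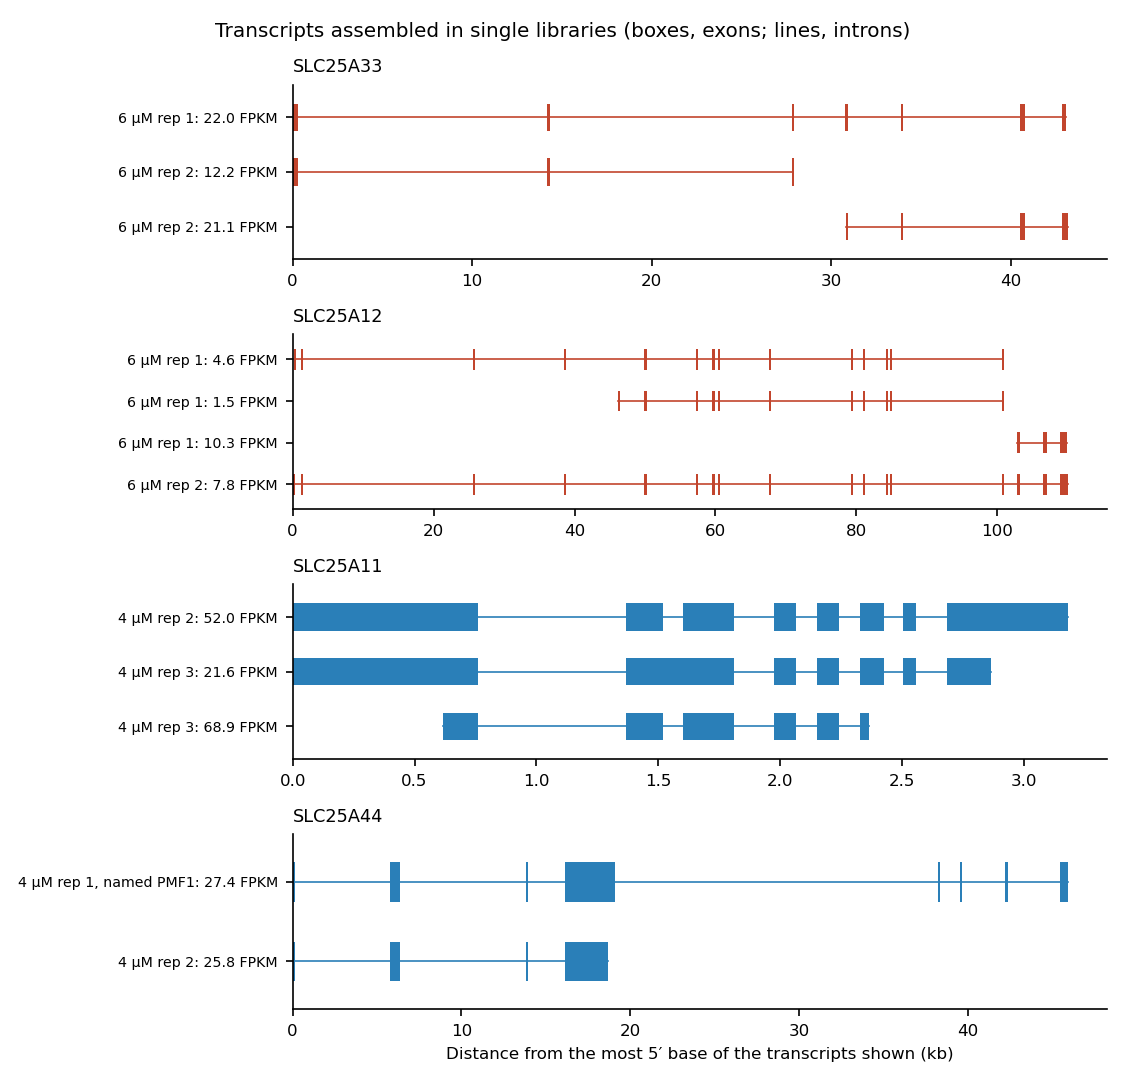
Exons (boxes) and introns (lines) of transcripts assembled in single libraries, by distance in kb from the most 5′ base shown, with the FPKM of each. SLC25A33 and SLC25A12 were assembled in separate pieces in 1 library at 6 µM, SLC25A11 as 2 overlapping transcripts in replicate 3 at 4 µM, and SLC25A44 as part of a longer transcript in replicate 1 at 4 µM.

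Pieces without overlap were rare. Among 355 pairs of a carrier and a library with a transcript, 11 were assembled as more than 1 piece without overlap, in 8 genes, and 17 carriers had an identical intron chain in all 9 libraries. In a summed FPKM each piece counts in full, so a split gene reads too high. Among these cases are replicate 1 at 6 µM for SLC25A12, SLC25A30 and SLC25A40, replicate 2 at 6 µM for SLC25A33, replicate 3 at 6 µM for SLC25A40, replicate 1 at 4 µM for SLC25A25, replicate 2 at 4 µM for SLC25A15, and replicate 3 at 0 µM for SLC25A40 and SLC25A46. Transcripts of a gene that overlap only in part are not in this count. The ratio of mean summed FPKM to mean consensus exon value was 1.85 for SLC25A51, 1.78 for SLC25A40 and 1.75 for SLC25A29.

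Carriers of cofactors and nucleotides number 10 on the list, of which 9 were tested and 0 passed. SLC25A33 (chr1:9539465-9585173) carries pyrimidine nucleotides and is induced by insulin and growth factor signalling. It read 17.7, 15.0 and 14.3 FPKM at 0 µM, 22.4, 22.7 and 23.03 at 4 µM, then 22.0, 33.3 and 21.7 at 6 µM, with no overlap between treated and untreated libraries. The log2 difference was 0.51 ± 0.18 at 4 µM (adjusted p = 0.390) and 0.65 ± 0.18 at 6 µM (adjusted p = 0.122). The library at 33.3 held the gene in pieces of 21.1 and 12.2 FPKM, and its consensus exon value was 17.0, still above the highest at 0 µM, 16.4. With that value the difference was 0.52 ± 0.12 at 4 µM (adjusted p = 0.186) and 0.39 ± 0.12 at 6 µM (adjusted p = 0.0971). SLC25A36, its paralog, stayed between 6.08 and 8.87 FPKM in all 9 libraries.

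With summed FPKM the other carriers of this group did not reach an unadjusted p under 0.05. SLC25A17, a carrier of the peroxisomal membrane for coenzyme A and related cofactors, was the most abundant at 30.4 ± 2.42, 29.6 ± 3.03 and 32.9 ± 1.66 FPKM. SLC25A32, the folate carrier, was at 25.8 ± 5.41, 20.5 ± 3.00 and 17.6 ± 4.93 FPKM. At 6 µM its log2 difference was -0.54 (adjusted p = 0.284). SLC25A16 read 3.90, 4.04 and 3.68 FPKM at 0 µM, and all treated libraries were below these, from 2.59 to 3.37, with an adjusted p of 0.480 at 4 µM and 0.358 at 6 µM. With the consensus exon value its treated libraries were also below, with differences of -0.40 ± 0.14 at 4 µM (adjusted p = 0.268) and -0.24 ± 0.14 at 6 µM (adjusted p = 0.307). SLC25A26, which carries S-adenosylmethionine, and SLC25A51, the NAD carrier, averaged 13.2 and 4.65 FPKM. SLC25A42, a coenzyme A carrier, was listed at 0 in replicate 2 at 4 µM, where its consensus exon value was 1.73 FPKM.

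The iron carriers supply the matrix for haem and iron-sulphur cluster synthesis. SLC25A37, mitoferrin-1 (chr8:23528956-23575463), read 15.4, 11.2 and 11.05 FPKM at 0 µM, 8.66, 8.86 and 7.54 at 4 µM, then 10.6, 10.6 and 9.60 at 6 µM. All treated libraries were below all at 0 µM. The log2 difference was -0.52 ± 0.16 at 4 µM (adjusted p = 0.368) and -0.25 ± 0.16 at 6 µM (adjusted p = 0.443). Its libraries at 0 µM held 3, 2 and 2 transcripts and all others 1, and with the consensus exon value the difference at 4 µM was -0.039 ± 0.30 (adjusted p = 0.966). SLC25A28, mitoferrin-2, was at 7.30 ± 1.77, 5.16 ± 1.31 and 6.27 ± 1.12 FPKM. Of the glutathione carriers, SLC25A39 was at 56.0 ± 16.9, 74.0 ± 4.57 and 65.3 ± 3.68 FPKM, and SLC25A40 ranged from 4.72 to 17.0.

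The remaining carriers were of low to middling level. SLC25A20, the carnitine-acylcarnitine carrier of fatty acid oxidation, was the only 1 of 3 on its list to be assembled, at 10.8 ± 3.51, 9.65 ± 0.87 and 8.96 ± 0.55 FPKM. The relatives of uncoupling proteins SLC25A14, SLC25A27 and SLC25A30 averaged 11.1, 1.32 and 9.47 FPKM. SLC25A46, a protein of the outer membrane with a part in mitochondrial shape, was at 12.4 ± 6.08, 6.94 ± 0.81 and 7.87 ± 1.46 FPKM. SLC25A45 (chr11:65375192-65383701) read 2.76, 3.01 and 3.15 FPKM at 0 µM, 4.11, 5.56 and 3.24 at 4 µM, then 5.52, 5.01 and 4.55 at 6 µM, with every treated library above those at 0 µM. Its log2 difference was 0.39 ± 0.20 at 4 µM (adjusted p = 0.494) and 0.60 ± 0.20 at 6 µM (adjusted p = 0.178), and it was assembled with 24 different intron chains over the 9 libraries. SLC25A43 and SLC25A53 averaged 4.86 and 1.86 FPKM.

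With summed FPKM, 6 of 40 carriers (15%) had all 3 libraries at 4 µM above all 3 at 0 µM, beside 9.96% of all genes. They were SLC25A1, SLC25A6, SLC25A23, SLC25A29, SLC25A33 and SLC25A45. In the other direction 3 (7.5%) lay below, SLC25A16 and SLC25A37 among them, beside 8.44% of all genes. At 6 µM 8 of 40 (20%) lay above, the same 6 and SLC25A12 and SLC25A43, beside 10.9%, and 5 (12.5%) below, SLC25A11, SLC25A16, SLC25A24, SLC25A25 and SLC25A37, beside 14.1%. Between the treated doses, SLC25A37 was higher at 6 than at 4 µM without overlap (2.5%, beside 3.69%), and SLC25A10 and SLC25A11 were lower (5%, beside 7.36%). With the consensus exon value SLC25A37 overlapped in all comparisons. At 4 µM SLC25A10 and SLC25A43 also lay above 0 µM, and SLC25A25 below. At 6 µM SLC25A11 and SLC25A12 overlapped 0 µM, and SLC25A17 also lay above. Between the treated doses SLC25A14, SLC25A28 and SLC25A29 were then higher, and SLC25A20 was also lower. Shares of all genes are not given for this value, so these members cannot be read as more or fewer than among all genes.

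The DNA upstream of the 5 carriers with an unadjusted p under 0.05 for higher values at both doses is shown because these members share that direction. Each line gives the 250 bases before the RefSeq start (GRCh38.p14), on the strand of the gene and 5′ to 3′. Capitals mark the motifs found there on either strand. They are the GC box, with the letters GGGCGG, the CCAAT box, named for its letters, and the E-box, here searched as CACGTG.
SLC25A1: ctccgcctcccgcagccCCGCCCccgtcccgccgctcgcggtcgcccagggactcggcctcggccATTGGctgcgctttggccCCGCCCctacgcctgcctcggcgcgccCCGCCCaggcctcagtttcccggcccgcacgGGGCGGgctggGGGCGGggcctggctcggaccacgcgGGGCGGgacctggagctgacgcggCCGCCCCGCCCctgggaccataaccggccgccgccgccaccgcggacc
SLC25A6: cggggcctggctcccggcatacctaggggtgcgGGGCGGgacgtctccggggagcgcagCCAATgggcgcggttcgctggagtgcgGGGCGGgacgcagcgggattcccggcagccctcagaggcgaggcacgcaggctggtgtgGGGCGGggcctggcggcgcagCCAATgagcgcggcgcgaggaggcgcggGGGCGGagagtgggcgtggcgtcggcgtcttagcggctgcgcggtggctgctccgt
SLC25A23: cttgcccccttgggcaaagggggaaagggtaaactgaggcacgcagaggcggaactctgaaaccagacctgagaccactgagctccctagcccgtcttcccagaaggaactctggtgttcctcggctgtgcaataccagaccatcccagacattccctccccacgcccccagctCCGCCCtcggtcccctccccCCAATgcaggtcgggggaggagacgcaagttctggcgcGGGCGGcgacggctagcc
SLC25A29: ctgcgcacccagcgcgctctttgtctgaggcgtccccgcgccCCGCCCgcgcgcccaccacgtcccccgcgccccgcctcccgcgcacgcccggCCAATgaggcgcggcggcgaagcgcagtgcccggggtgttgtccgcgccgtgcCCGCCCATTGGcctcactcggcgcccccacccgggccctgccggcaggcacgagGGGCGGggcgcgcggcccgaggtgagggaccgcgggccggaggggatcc
SLC25A33: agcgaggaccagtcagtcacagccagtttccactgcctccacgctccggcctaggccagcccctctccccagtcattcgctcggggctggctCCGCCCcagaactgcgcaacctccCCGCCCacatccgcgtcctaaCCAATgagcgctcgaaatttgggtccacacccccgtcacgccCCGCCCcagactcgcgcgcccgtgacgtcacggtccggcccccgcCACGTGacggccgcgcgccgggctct
They lie at chr22:19178737-19178986, chrX:1392114-1392363, chr19:6459793-6460042, chr14:100306445-100306694 and chr1:9539215-9539464, all on the minus strand except that of SLC25A33. All 5 hold a GC box and a CCAAT box. GC boxes number 8 in SLC25A1, 4 in SLC25A6, 3 in SLC25A29, 3 in SLC25A33 and 2 in SLC25A23, and SLC25A33 has the only E-box among them. Matches that overlap were each counted, as in the longest run of capitals near the 3′ end of the SLC25A1 sequence.

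Both motifs were also frequent in the family as a whole, the 5 shown included. RefSeq promoters were matched for 36 members, with 45 windows, and set beside 34942 windows of all genes. Counted by gene, 28 of the 36 members held a GC box and 20 a CCAAT box. A GC box was in 66.7% of the carriers' windows and 42.5% of all, a CCAAT box in 46.7% and 32.0%, and the E-box in 15.6% and 6.32%. The median GC content was 66% in the carriers' windows and 58% in all, and in the 5 shown it was 81.6% for SLC25A1, 76.8% for SLC25A6, 64.4% for SLC25A23, 81.2% for SLC25A29 and 70.4% for SLC25A33. The motif of NRF1, TATAAA (the TATA box), GGAAGTG (bound by ETS factors) and TCACNCCAC (a sterol element) were in 4.44%, 8.89%, 11.1% and 2.22% of the carriers' windows, beside 5.04%, 10.8%, 9.26% and 0.881% of all, and the motif of YY1 was in 0 carrier windows and 0.375% of all. A match is a string of letters in this window and no evidence of binding.

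Genes that work with the carriers gave few calls. Of the relatives of the fold, UCP2, an uncoupling protein, was at 10.5 ± 2.58, 14.2 ± 1.13 and 12.7 ± 3.06 FPKM, MTCH1 at 91.0 ± 4.97, 103 ± 9.43 and 113 ± 10.7, and MTCH2, an insertase of the outer membrane, at 105 ± 50.6, 64.8 ± 5.35 and 87.4 ± 40.7. Of 13 genes of the import route that inserts carriers into the inner membrane, 0 passed in any comparison, and at an unadjusted p under 0.05 0 were higher. Lower were 0 at 4 µM, 3 (23.1%, beside 9.75% of all genes) at 6 µM and 1 (7.69%, beside 2.96%) between the doses. Of 20 other transporters of the inner and outer membrane 0 passed. By the unadjusted p 2 were lower at each dose (10%, beside 4.63% of all genes at 4 µM and 9.75% at 6 µM) and 1 was higher between the doses (5%, beside 1.69%). Of 20 enzymes of the shuttles and of carrier substrates, 19 were tested and 1 passed, at 6 µM. By the unadjusted p 3 of them were higher at 4 µM (15.8%, beside 6.2% of all genes) and 1 lower (5.26%, beside 4.63%), then 2 higher at 6 µM (10.5%, beside 8.08%) and 3 lower (15.8%, beside 9.75%). Between the doses 1 was higher (5.26%, beside 1.69%) and 1 lower (5.26%, beside 2.96%). The gene that passed was ACLY, the enzyme that splits the citrate exported by SLC25A1. ACLY read 93.1, 112 and 124 FPKM at 0 µM, 161, 137 and 137 at 4 µM, then 265, 241 and 213 at 6 µM. Its log2 difference was 0.40 ± 0.15 at 4 µM (adjusted p = 0.416) and 1.12 ± 0.15 at 6 µM (adjusted p = 0.0452). With the replicate block the latter did not pass (adjusted p = 0.0653), and with the consensus exon value it was 0.59 ± 0.13 and passed (adjusted p = 0.0440).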

How the data were processed

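Poly-A RNA of 9 WM3248 libraries was measured, 3 per dose. For each library the authors deposited 1 assembly of transcripts, with an FPKM for each transcript in its attribute text. The lines name Cufflinks as their source, per the file headers. Cufflinks 2.2.1, TopHat2 2.1, Bowtie2 2.2.7, Trimmomatic, SAMtools 1.9 and R 4.0.3 are named, with GRCh37 as the build, per the submitters' processing notes. The coordinates are those of GRCh38: 98.00% of 1693002 introns lie at annotated GRCh38 positions and 0.73% at GRCh37 positions. The files carry no gene names, and the sources used here do not state whether libraries kept strand, so values of overlapping and antisense genes are uncertain.

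Spliced transcripts were named after the same-strand RefSeq gene (GRCh38) with which they overlapped and had most intron lengths in common (GENCODE); 95.84% of spliced transcripts were named. A single-exon transcript was used where at least 50% of it lay in a gene never assembled with introns. FPKM was summed per gene, with 0 where nothing was assembled, which can be a failed assembly. No scaling was added: replicate 3 at 0 µM had a sum of FPKM of 1061112, and the other 8 libraries had 587999 to 689699. Genes averaging 1 FPKM or more were tested on log2(FPKM + 1) with limma 3.58.1 (R 4.3.3), 1 mean per dose, trend=TRUE, Benjamini-Hochberg over all genes at 0.05. The script was tested on simulated data. Naming and summaries used Python 3.11.15 and pandas 2.3.3. The design had assumed a table of FPKM per reference gene, and naming was the added step.

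Full statistics are given for carriers with an unadjusted p under 0.05 in a comparison of summed FPKM, and levels for the others. The values of 1 member are not reported here, though counts over the members include it. List genes that are no carriers are named only if they passed, besides UCP2, MTCH1 and MTCH2. The members and lists were chosen with earlier results of these data known. Same-numbered libraries carry a shared mark in the descriptions, whose meaning is not stated. Over genes, the deviations of same-numbered libraries from the dose means correlated at 0.104 to 0.137 between 4 and 6 µM. They correlated at 0.044 to 0.055 between 0 and 6 µM and at -0.016 to -0.001 between 0 and 4 µM. For libraries of different number the ranges were, in the same order, -0.091 to -0.022, -0.042 to -0.01 and -0.007 to 0.009. Deviations within a dose cancel out, so positive values for same-numbered libraries go with negative ones here, and these ranges are no independent comparison. Values are from the fit without a replicate block unless the block is named.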

Additional observations from a re-analysis of the deposited data

How the results depend on the processing

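The 14 named differences (a carrier at a dose) were recomputed under 30 other settings. Over these 420 values 398 kept direction and side of the threshold, 20 moved past it and 2 reversed, both for SLC25A37 at 4 µM. Its difference with the consensus exon value, 1 library left out at a time, included 0.076 and 0.024, and with the summed value the lowest was -0.60. At 6 µM carriers past the threshold numbered 2 with the consensus exon value, also with the replicate block, and 1 (SLC25A29) with a pseudocount of 0.1, median-ratio scaling, introns matching by at least 50%, or single-exon transcripts left out. At 4 µM there was 1 (SLC25A29) when at least 50% of introns had to match. Leaving out 1 library with either value gave 0 to 1 carriers at 4 µM, 0 to 3 at 6 µM and 0 between the doses. Genes past the threshold at 4 µM numbered 2 with the replicate block and 6 to 26 with 1 library left out. At 6 µM they numbered 557 with the consensus exon value (694 with the block), 22 without a filter, 17 with TPM, 16 with only the doses compared, 20 with robust variances, 4 with the replicate block and 16 to 558 with 1 library left out. Between 6 and 4 µM it was 6 with the consensus exon value (5 with the block), 5 without a filter, 1 with the replicate block and 2 to 15 with 1 library left out. The carriers' median at 6 µM was -0.096 with the consensus exon value, with and without the block, and -0.20 to 0.047 with 1 library left out; between the doses it was -0.020, and -0.051 to 0.081. TPM moved the median of all genes to 0.31 at 4 µM and 0.23 at 6 µM and that of the carriers to 0.32 and 0.19. Relative to all genes, SLC25A29 was then 0.91 and 1.03 higher. Of the calls at 6 µM 57.9% were higher as deposited, 94.1% with TPM and 39.1% with the consensus exon value. The block changed no carrier's call with either value. The added settings (exact GRCh38 introns, and the consensus exon value with the block or with a library left out) were chosen after seeing the data. Cause was not tested where a value changed. Depth in reads is unknown, so no counting limits can be given for low carriers.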
